A study of Mus musculus with 25 samples.

Results

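The adenylyl cyclases are the enzymes that make cyclic AMP (cAMP) from ATP, and all 10 mouse genes of the family, Adcy1 to Adcy10, were followed in 2 mouse islet cell lines. Members were taken by name: the 10 RNA-seq rows with these symbols, of 24439 genes, and the 55 ATAC-seq peaks with one of them as nearest annotated gene, of 65053 consensus peaks. The study profiled αTC1 (alpha TC1 clone 6, a glucagon-producing line) and βTC6 (beta-TC-6, an insulin-producing line), each bought as 1 established line, so every difference below is between 2 lines and not between alpha and beta cells at large. RNA-seq was made from 3 libraries of each line. ATAC-seq, which reads open chromatin, was made from 5 libraries of each line and from 9 single mixtures of the lines, with βTC6 at 10% to 90% of 100000 cells. No agent or genetic change was applied. The αTC1 cells grew in medium with 10% serum, HEPES, non-essential amino acids, albumin and added glucose, and the βTC6 cells in another formulation of the same medium with 15% serum and sodium pyruvate, so line and medium cannot be told apart. Nothing in the labels says that replicates were separate cultures, so p-values measure the spread between these libraries only.

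All of these enzymes but Adcy10 sit in the plasma membrane and are switched on by the stimulatory G protein when a receptor such as that for GLP-1 or glucagon is occupied, while Adcy10 is soluble and answers to bicarbonate. The membrane isoforms differ in what else they sense: Adcy1 and Adcy8 are stimulated by calcium with calmodulin, and Adcy3 is usually grouped with them. Adcy2, Adcy4 and Adcy7 are stimulated by G protein βγ subunits, Adcy5 and Adcy6 are inhibited by calcium, and Adcy9 responds poorly to forskolin. In islet cells cAMP acts through protein kinase A and the exchange factor Epac2 to raise hormone release, so the isoforms that a cell makes set which signals reach its cAMP.

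The lines matched their labels by defining markers. The 7 beta-cell markers summed to 14.5 to 15.6 FPKM (fragments scaled to transcript length and library size) in αTC1 and 34101 to 51154 in βTC6, and the 5 alpha-cell markers summed to 12352 to 14698 and 194 to 283, respectively. Most of the beta-cell sum in αTC1 was Nkx6-1, at 13.3 to 14.1 FPKM. Most of the alpha-cell sum in βTC6 was Gcg, at 172 to 267 FPKM, and Irx1 and Irx2 were also above 1 FPKM in every βTC6 library. Of 8 markers of other cells, which summed to 3.96 to 4.0 FPKM in αTC1 and 239 to 349 in βTC6, Sst of delta cells and Ppy of PP cells were above 1 FPKM in every βTC6 library and Cela1 of acinar cells in every αTC1 library. The pancreas-duct, stromal, endothelial and leukocyte markers Krt19, Col1a1, Pecam1 and Ptprc stayed at or below 0.28 FPKM, and the part of Sst- or Ppy-expressing cells in the results was not tested. Replicates were compared by a variance ratio, the variance of their count differences over that of sampling noise alone. In RNA-seq it was 2.03 between αTC1 replicates 1 and 2, which were close. The ratio was 26.3 and 27.7 between αTC1 replicate 3 and these, and 16.4 to 36.2 among the βTC6 libraries. RNA-seq libraries held 21954031 to 26033482 expected counts and ATAC-seq libraries 4397851 to 10374903 reads in peaks. ATAC-seq replicates 4 and 5 of each line stood apart from replicates 1 to 3. Between libraries of 1 line, the variance ratio was 2.06 to 2.54 among replicates 1 to 3 and 4.38 to 10.5 otherwise. Most of the called peaks described below are therefore given for both sets as well.

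Before the values, the open regions that the results turn on are shown, as mm9 sequence 5′ to 3′ on the strand of the gene. Capitals mark a cAMP response element (TGACGTCA), an E-box (CAGCTG), a homeodomain core (TAATTA) or a forkhead core (TGTTTAC), searched on both strands. The first is 300 bases from the middle of the peak upstream of the Adcy8 start site (chr15:64754591-64754890), shown because, of the 55 peaks, it alone held a full cAMP response element in the 300 bases centred on its middle, and an E-box follows it.
Adcy8 upstream promoter peak: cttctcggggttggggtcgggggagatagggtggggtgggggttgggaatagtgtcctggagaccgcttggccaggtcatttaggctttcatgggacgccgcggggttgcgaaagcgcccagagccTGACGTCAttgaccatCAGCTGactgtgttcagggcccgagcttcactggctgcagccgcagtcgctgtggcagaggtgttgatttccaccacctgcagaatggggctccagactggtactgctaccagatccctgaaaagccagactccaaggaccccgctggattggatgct

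The next pair comes from the 2 promoters of Adcy7, shown because they differed between the lines in opposite directions. The first lies just before the outer start site (chr8:90796068-90796301) and the second just before a start site inside the gene (chr8:90806591-90806890), and neither holds any of the motifs searched.
Adcy7 outer promoter: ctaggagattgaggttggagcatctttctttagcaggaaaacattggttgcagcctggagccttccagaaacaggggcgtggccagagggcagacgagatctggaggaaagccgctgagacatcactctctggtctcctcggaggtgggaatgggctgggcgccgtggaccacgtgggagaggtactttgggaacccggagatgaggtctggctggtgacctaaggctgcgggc
Adcy7 internal promoter: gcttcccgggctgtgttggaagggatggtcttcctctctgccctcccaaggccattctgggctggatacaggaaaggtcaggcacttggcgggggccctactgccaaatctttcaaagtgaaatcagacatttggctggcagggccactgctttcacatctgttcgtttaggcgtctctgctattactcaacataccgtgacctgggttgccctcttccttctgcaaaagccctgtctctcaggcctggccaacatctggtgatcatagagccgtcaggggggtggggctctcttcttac

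The last 4 are the middles of distal peaks among those that differed most: an intergenic peak upstream of Adcy1 (chr11:6896926-6897225) and an intronic peak of Adcy8 (chr15:64609570-64609869), both more open in βTC6, and an intergenic peak upstream of Adcy2 (chr13:69321963-69322262) and an intronic peak of Adcy5 (chr16:35205821-35206120), both more open in αTC1. In the Adcy1 region the last bases of the E-box are the first bases of the forkhead core, and both matches were counted.
Adcy1 distal peak: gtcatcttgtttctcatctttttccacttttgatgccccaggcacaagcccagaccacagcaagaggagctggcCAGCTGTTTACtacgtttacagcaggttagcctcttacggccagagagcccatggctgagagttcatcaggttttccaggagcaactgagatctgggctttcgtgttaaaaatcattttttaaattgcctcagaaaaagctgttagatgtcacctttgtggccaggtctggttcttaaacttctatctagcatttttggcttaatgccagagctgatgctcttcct
Adcy8 intronic peak: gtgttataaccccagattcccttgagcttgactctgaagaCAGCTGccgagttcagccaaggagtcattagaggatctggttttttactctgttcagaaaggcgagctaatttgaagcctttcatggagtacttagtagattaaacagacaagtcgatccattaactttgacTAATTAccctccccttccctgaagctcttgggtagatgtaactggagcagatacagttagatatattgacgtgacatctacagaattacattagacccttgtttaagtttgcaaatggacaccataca
Adcy2 distal peak: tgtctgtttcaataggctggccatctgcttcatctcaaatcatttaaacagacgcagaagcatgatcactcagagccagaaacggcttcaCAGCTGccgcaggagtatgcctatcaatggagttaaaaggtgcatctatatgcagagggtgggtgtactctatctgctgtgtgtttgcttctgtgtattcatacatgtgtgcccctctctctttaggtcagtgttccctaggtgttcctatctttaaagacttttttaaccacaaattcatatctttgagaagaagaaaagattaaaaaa
Adcy5 intronic peak: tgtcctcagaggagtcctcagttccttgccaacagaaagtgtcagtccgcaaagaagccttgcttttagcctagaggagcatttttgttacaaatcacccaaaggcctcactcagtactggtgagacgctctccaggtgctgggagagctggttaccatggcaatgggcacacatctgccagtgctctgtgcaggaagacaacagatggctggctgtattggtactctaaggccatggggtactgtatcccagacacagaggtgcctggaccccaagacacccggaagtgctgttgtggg

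The mRNA data answer which isoforms each line makes. In αTC1 a single isoform, Adcy6, made up most of the family's mRNA, whereas βTC6 held Adcy1, Adcy6 and Adcy9 at similar levels with Adcy2 and Adcy3 below them. Summed over the 10 genes, FPKM was 29.3 ± 0.191 in αTC1 and 42.5 ± 3.73 in βTC6 (SD, n = 3 each). A gene was tested if its FPKM was at least 1 in all libraries of either line, and called if it passed edgeR's Benjamini-Hochberg FDR at 0.05 and differed by more than 2 in log2. Of 12195 genes tested, 10.2% were called higher in βTC6 and 4.08% higher in αTC1. Of the 10 members 5 were tested, and Adcy1, Adcy2, Adcy3 and Adcy9 were called higher in βTC6 and none higher in αTC1. Adcy1, Adcy2 and Adcy3 passed the filter only through βTC6, so they had to differ, and only Adcy6 and Adcy9 passed in both lines.

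**Figure D1:**
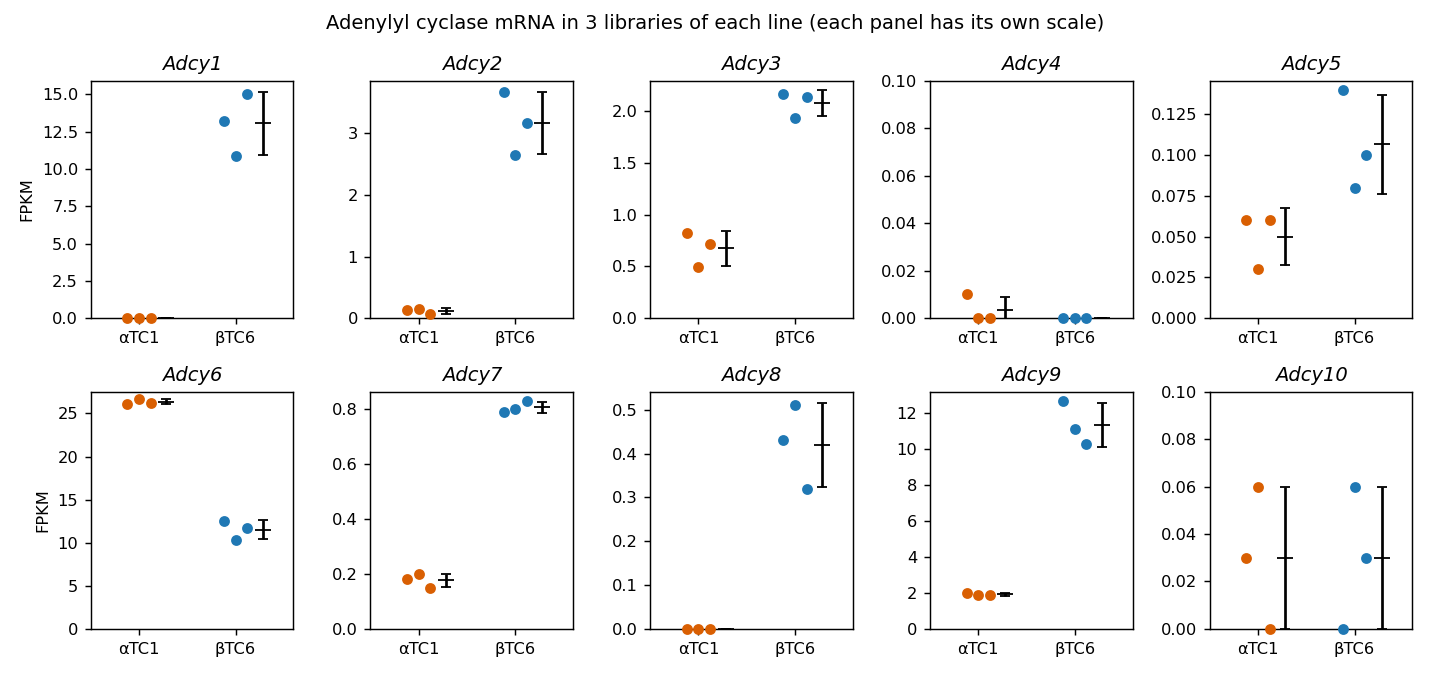
FPKM of each adenylyl cyclase gene (vertical axes, each with its own scale from 0) in αTC1 (orange) and βTC6 (blue); dots are the 3 libraries of a line, and the bars beside them the mean ± SD. Adcy6 lies between 26.1 and 26.7 in αTC1, above its βTC6 libraries, and Adcy1 between 10.9 and 15.1 in βTC6 against 0 to 0.02 in αTC1.

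Among the calcium-stimulated isoforms, Adcy1 (mm9 chr11:6963492-7078509, plus strand) is the classical calmodulin-activated cyclase of the brain. Its FPKM was 0.02, 0.02 and 0 in αTC1 and 13.2, 10.9 and 15.1 in βTC6. It was near 0 in every αTC1 library and the most abundant member on average in βTC6. The counts behind it were 2, 2 and 0 against 3510, 3096 and 3743, a ratio of summed counts per library size of 2513 with an exact 95% counting interval of 981 to 9226 (edgeR log2 fold change 11.17, SE 0.25, adjusted p = 3.25e-09).

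Adcy8 (chr15:64530604-64753858, minus strand), the other cyclase that calcium activates strongly, was not tested because it stayed under 1 FPKM. It had 0 counts in each αTC1 library and 57, 67 and 39 in βTC6, which are 0.43, 0.51 and 0.32 FPKM. The groups did not overlap, and against a floor of 3 counts over the αTC1 libraries together the level was at least 52.8-fold higher in βTC6.

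Adcy3 (chr12:4133103-4213525, plus strand), best known as the cyclase of olfactory neurons and cilia, had an FPKM of 0.82, 0.49 and 0.72 in αTC1 and 2.16, 1.93 and 2.14 in βTC6. All βTC6 libraries were above all αTC1 libraries. The size of the difference depended on the scale: 2.65 in log2 counts (SE 0.18, adjusted p = 1.72e-06), which is 6.28-fold, but 3.07-fold between mean FPKM values. The counts and FPKM together imply an effective transcript length of 1654 to 3106 bases in αTC1 and 3947 to 3994 in βTC6, shorter in αTC1. For Adcy6 the same quantity was 6101 to 6126 bases in all 6 libraries. Adcy3 overlaps Cenpo on the opposite strand and its counts are not whole numbers. The libraries came from a stranded kit, but RSEM was run at its default settings, which do not use strand, so reads of the 2 genes cannot be told apart by strand and the level of Adcy3 is uncertain.

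Of the isoforms stimulated by βγ subunits, Adcy2 (chr13:68758920-69138419, minus strand) differed most. Its FPKM was 0.13, 0.15 and 0.07 in αTC1 and 3.66, 2.65 and 3.17 in βTC6, from 8 to 16 and 294 to 402 counts. The groups were far apart, with a log2 fold change of 4.78 (SE 0.26, edgeR adjusted p = 4.07e-07).

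Adcy7 (chr8:90796302-90853861, plus strand), a cyclase prominent in blood and immune cells, was below the filter, with an FPKM of 0.18, 0.20 and 0.15 in αTC1 and 0.79, 0.80 and 0.83 in βTC6. Without the filter, where 12.8% of 19570 genes were called higher in βTC6 and 5.21% higher in αTC1, edgeR gave it a log2 fold change of 2.19 (SE 0.24, adjusted p = 4.72e-06). Adcy4 (chr14:56387895-56402879, minus strand), known from vessels and other peripheral tissues, had 1 count in a single αTC1 library and 0 in the other 5, so no fold is given.

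Of the calcium-inhibited pair, Adcy6 was lower in βTC6 while Adcy5 was low in both lines. Adcy6 (chr15:98420425-98438064, minus strand), a widely expressed cyclase, had an FPKM of 26.1, 26.7 and 26.2 in αTC1 and 12.5, 10.3 and 11.7 in βTC6. It was the only tested member that was lower in βTC6, and the groups did not overlap. The log2 fold change was -1.14 (SE 0.08, edgeR adjusted p = 1.91e-06), 2.2-fold on counts, which passed the FDR but not the fold required of a call. Its relative Adcy5 (chr16:35154963-35305823, plus strand), the main cyclase of striatum and heart, had 9, 6 and 11 counts in αTC1 and 25, 14 and 18 in βTC6. Its FPKM was 0.06, 0.03 and 0.06 against 0.14, 0.08 and 0.10, higher in every βTC6 library, although without the filter the difference did not pass (log2 fold change 1.02, SE 0.44, edgeR adjusted p = 0.0623).

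Adcy9 (chr16:4287529-4420498, minus strand), the membrane isoform that forskolin stimulates least, was detected well in both lines. Its FPKM was 1.99, 1.87 and 1.89 in αTC1 and 12.7, 11.1 and 10.3 in βTC6. Every βTC6 library was above every αTC1 library, with a log2 fold change of 2.61 (SE 0.11, edgeR adjusted p = 8.44e-08) or 6.10-fold. It overlaps the pseudogene Gm6142 on the same strand. Adcy10 (chr1:167415314-167506905, plus strand), the soluble cyclase, had 3, 8 and 0 counts in αTC1 and 0, 1 and 1 in βTC6, and the libraries overlapped in FPKM at 0.06 or less.

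Ordered by FPKM, αTC1 ran Adcy6, Adcy9, Adcy3, Adcy7, Adcy2, Adcy5, Adcy10, Adcy1, Adcy4 and Adcy8. The first 3 were separated from the next by their library ranges, while Adcy7 overlapped Adcy2, Adcy2 lay just above Adcy5, and Adcy5 and those after it each overlapped their neighbour. In βTC6 the order was Adcy1, Adcy6, Adcy9, Adcy2, Adcy3, Adcy7, Adcy8, Adcy5, Adcy10 and Adcy4. Adcy1 overlapped Adcy6 and Adcy6 overlapped Adcy9, so the leading 3 had no order beyond their spread, and from Adcy9 to Adcy10 each neighbouring pair was separate.

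As a share of the summed FPKM of the family, Adcy5 and Adcy6 took 90.0% ± 0.733 in αTC1 and 27.3% ± 0.396 in βTC6 (SD, n = 3 each). The calcium-stimulated Adcy1, Adcy3 and Adcy8 took 2.35% ± 0.576 and 36.5% ± 3.13. Adcy9 took 6.53% ± 0.225 and 26.8% ± 2.89, and the βγ-stimulated group 1.01% ± 0.226 and 9.31% ± 0.406. These are descriptions of mRNA make-up with no test. On expected counts, which favour long transcripts, the calcium-stimulated share in βTC6 exceeded that in αTC1 by 50.0 percentage points, in place of 34.2 on FPKM.

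**Figure D2:**
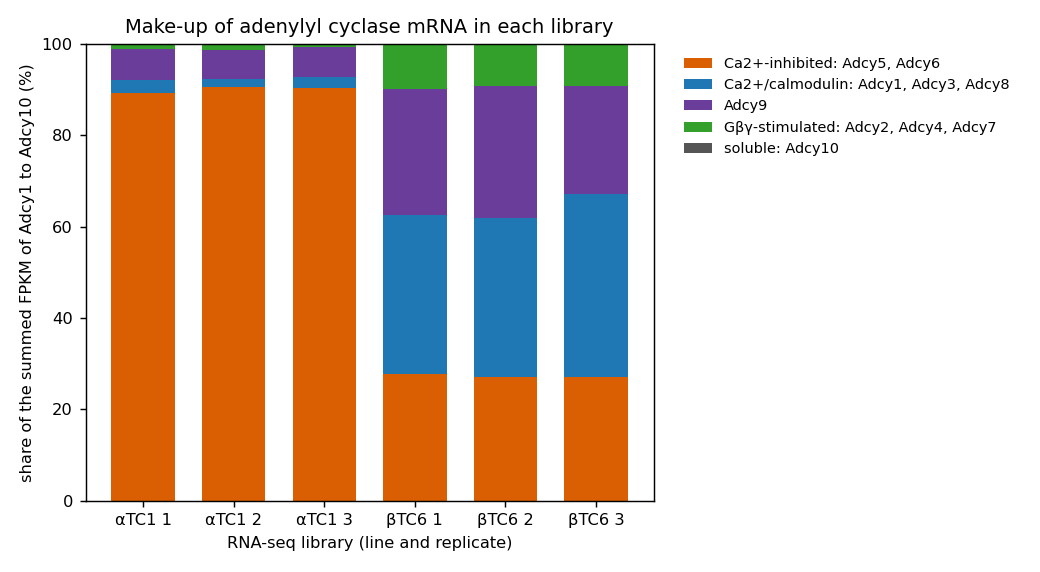
Share of the summed FPKM of Adcy1 to Adcy10 (vertical axis, %) taken by each isoform group in each of the 6 RNA-seq libraries (horizontal axis), as stacked bars. Adcy5 and Adcy6 take 89.2% to 90.5% in the αTC1 libraries and 27.1% to 27.8% in the βTC6 libraries.

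The ATAC-seq data show how open the chromatin near these genes was. Values are reads in a peak after the authors' library scaling (TMM). A peak was called if it passed limma's FDR at 0.05 and differed by more than 2 on log2(normalized read count + 1), a scale that understates differences of low peaks. Over all peaks, 12.9% were called higher in βTC6 and 5.38% higher in αTC1. Of the 55 peaks near adenylyl cyclase genes, 11 (20.0%) were called higher in βTC6 and 2 (3.64%) higher in αTC1. Their median log2 fold change was 0.61, against 0.0011 over all peaks. At any fold, 29 (52.7%) passed the FDR as higher in βTC6 and 11 (20.0%) as higher in αTC1, beside 39.9% and 38.1% of all peaks. Peaks that share a gene are not independent, and 22 of the 55 belong to Adcy2, 10 to Adcy8 and 8 to Adcy1. By position 9 overlapped an annotated exon of a protein-coding gene, 17 lay in introns and 29 outside protein-coding genes. A nearest gene is an annotation by distance to a start site only, and 10 further peaks lay inside adenylyl cyclase genes but were assigned to another gene.

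**Figure D3:**
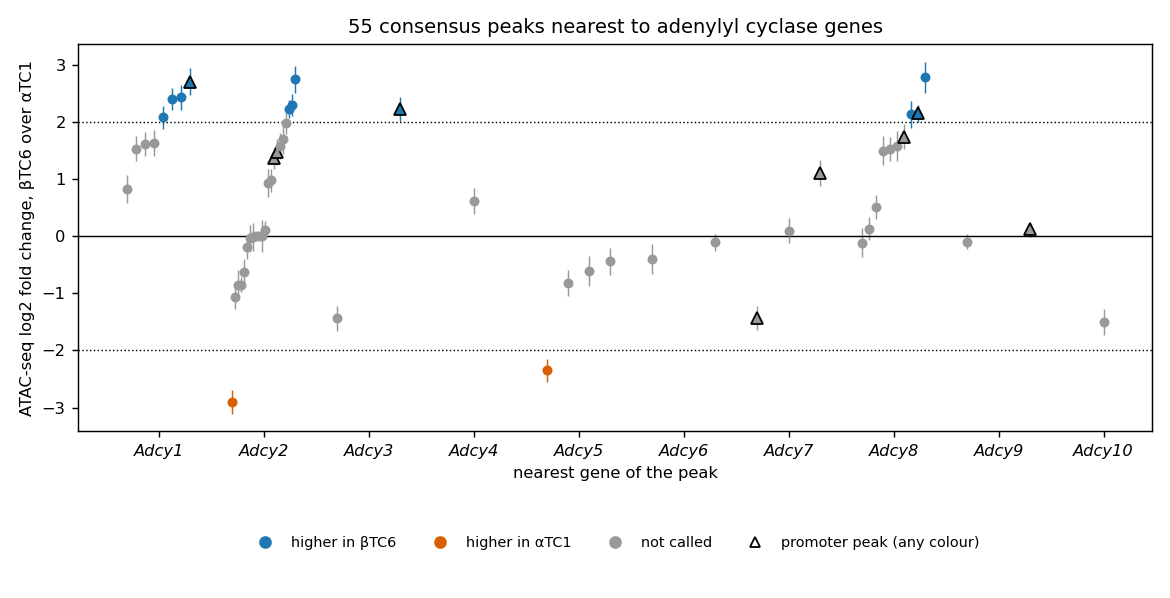
ATAC-seq log2 fold change of βTC6 over αTC1 (vertical axis, on log2(normalized read count + 1), bars are SE) for each of the 55 peaks, grouped by nearest gene and ordered by value within it; triangles are promoter peaks, and dotted lines mark the fold a call requires. All 8 Adcy1 peaks lie above 0 and all 4 Adcy5 peaks below it, while those of Adcy2 run from -2.90 to 2.75.

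Around Adcy1 all 8 peaks were higher in βTC6 at the FDR, by 0.82 to 2.71, and 4 were called. A further peak inside Adcy1 that was assigned to Gm11985 was lower in βTC6 (log2 fold change -0.51, SE 0.20, limma adjusted p = 0.0245). The promoter peak (chr11:6963661-6964289), centred 483 bases into the gene, held 1.40, 1.26, 1.05, 0.136 and 0.722 normalized reads in αTC1 and 12.9, 8.61, 14.5, 10.8 and 9.58 in βTC6. No αTC1 library came near a βTC6 library (log2 fold change 2.71, SE 0.24, limma adjusted p = 3.13e-09), by 2.51 in replicates 1 to 3 alone and 3.0 in replicates 4 and 5. The distal peak printed above (chr11:6896524-6897628), 66416 bases upstream, held 2.80, 3.51, 2.86, 1.91 and 1.88 in αTC1 against 14.3, 20.9, 16.9, 18.5 and 18.5 in βTC6. Here too the lines were fully separate (log2 fold change 2.40, SE 0.19, limma adjusted p = 5.08e-10), with 2.17 and 2.75 in the replicate sets.

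Around Adcy8, 8 of the 10 peaks were higher in βTC6 at the FDR, none was lower, and 3 were called. The promoter peak (chr15:64752365-64754159) over the first exon held 9.38, 7.73, 6.16, 6.55 and 6.07 normalized reads in αTC1 and 33.8, 33.4, 33.7, 28.5 and 47.7 in βTC6. This was the largest t of any member peak, although the gene's mRNA stayed at 0.51 FPKM or less. Its log2 fold change was 2.15 (SE 0.15, limma adjusted p = 8.55e-11), 2.00 in replicates 1 to 3 alone, where it just missed the fold of a call, and 2.38 in replicates 4 and 5. The neighbouring peak with the cAMP response element (chr15:64754506-64754976) held 3.36, 3.65, 2.71, 2.18 and 1.73 against 11.8, 8.61, 10.1, 11 and 15.8. It was higher in all βTC6 libraries but short of the fold (log2 fold change 1.74, SE 0.21, limma adjusted p = 3.33e-07), while replicates 1 to 3 alone gave 1.40 and replicates 4 and 5 gave 2.27, past the fold of a call. The intronic peak printed above (chr15:64609405-64610035) averaged 1.08 ± 0.283 and 14.7 ± 8.85 normalized reads (SD, n = 5 each), with βTC6 replicate 5 at 30.2 beside 8.28 to 12.9 in the others. That library held the most of the 5 in 8 of the 10 Adcy8 peaks, and in 18 of 53 peaks over the family. The intronic peak had a log2 fold change of 2.61 in replicates 1 to 3 and 3.05 in replicates 4 and 5. Without βTC6 replicate 5 it had a log2 fold change of 2.50 and the peak over the first exon 2.04, both still called.

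The Adcy3 promoter peak (chr12:4133090-4133807) overlaps the start of the gene. It held 0.70, 1.55, 1.35, 1.09 and 1.01 normalized reads in αTC1 and 11.1, 8.0, 11.1, 8.99 and 6.48 in βTC6, again with no overlap (log2 fold change 2.23, SE 0.21, limma adjusted p = 1.10e-08). Replicates 1 to 3 alone gave 2.34 and replicates 4 and 5 gave 2.08. With quantile normalization it was 1.78 and no longer called. The other Adcy3 peak, in an intron, was lower in βTC6 (log2 fold change -1.44, SE 0.22, limma adjusted p = 7.54e-06), and another peak inside the gene, assigned to Ptrhd1, did not pass (log2 fold change -0.26, SE 0.20, limma adjusted p = 0.241).

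Adcy2 had peaks in both directions, 10 higher and 5 lower in βTC6 at the FDR of its 22. Its pair of promoter peaks were both higher in βTC6 without being called. The one over the first exon (chr13:69137620-69138294) held 3.22, 6.32, 3.61, 6.28 and 4.77 normalized reads in αTC1 and 14.9, 10.3, 13.2, 15.4 and 15.2 in βTC6 (log2 fold change 1.37, SE 0.19, limma adjusted p = 2.21e-06). The one at the start site (chr13:69138379-69138779) held 2.38, 2.67, 1.5, 4.09 and 2.02 against 8.66, 9.02, 7.43, 11.7 and 6.57 (log2 fold change 1.47, SE 0.23, limma adjusted p = 6.94e-06). Neither overlapped between the lines.

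A pair of distal Adcy2 peaks with a large t went opposite ways, while 2 other Adcy2 peaks called higher in βTC6 had larger folds, of 2.75 and 2.3. The first (chr13:69203718-69204616), 65748 bases upstream, held 5.46, 6.18, 3.61, 6.55 and 3.90 normalized reads in αTC1 and 25.0, 31.8, 28.9, 25.3 and 25.6 in βTC6 (log2 fold change 2.23, SE 0.16, limma adjusted p = 1.50e-10), and the replicate sets gave 2.3 and 2.12. The second, printed above (chr13:69321733-69322494) and 183695 bases upstream, was more open in αTC1, with 24.9, 21.8, 20.9, 20.5 and 28.7 against 3.55, 1.85, 2.57, 0.999 and 2.91. It was the member peak most in favour of αTC1, the line in which Adcy2 mRNA was near 0 (log2 fold change -2.90, SE 0.21, limma adjusted p = 1.76e-10), with -2.71 in replicates 1 to 3 and -3.18 in replicates 4 and 5. Of the remaining 18 Adcy2 peaks 2 stood at a single read in all 19 libraries, as 471 peaks of the table did, and carry no information. Inside Adcy2, 6 more peaks were assigned to 1700001L19Rik, all of them higher in βTC6 at the FDR by 0.89 to 2.50, and 2 called.

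Adcy5 was the other gene with a peak called higher in αTC1. The intronic peak (chr16:35205708-35206235) lay 50250 bases downstream of a start site by the deposited distance. It held 19.6, 19.0, 15.6, 18.0 and 23.0 normalized reads in αTC1 and 2.84, 3.08, 4.86, 1.71 and 2.63 in βTC6 (log2 fold change -2.35, SE 0.20, limma adjusted p = 1.62e-09), -2.07 in replicates 1 to 3 and -2.77 in replicates 4 and 5. The libraries were fully separate, and 3 of the 4 Adcy5 peaks were lower in βTC6 at the FDR. Adcy5 had no promoter peak and its mRNA was low in both lines.

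The 2 promoter peaks of Adcy7 moved apart. The outer one (chr8:90796068-90796486), centred 25 bases from its start site, held 1.96, 2.25, 2.71, 1.5 and 2.17 normalized reads in αTC1 and 6.25, 4.51, 7.16, 3.28 and 8.36 in βTC6 (log2 fold change 1.11, SE 0.23, limma adjusted p = 0.000247). The internal one (chr8:90806543-90806896) held 6.30, 5.34, 4.81, 6.28 and 7.22 against 2.27, 1.23, 1.22, 1.85 and 1.41 (log2 fold change -1.44, SE 0.21, limma adjusted p = 2.55e-06). Each was separate between the lines and neither was called. The gene-level RNA-seq values do not tell which start site was used.

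Adcy9 and Adcy6 had no peak among the 55 that passed the FDR. The Adcy9 promoter peak (chr16:4419420-4420885) was open in both lines, with 29.7, 29.9, 26.6, 24.4 and 19.6 normalized reads in αTC1 and 31.5, 26.7, 31.1, 32.2 and 20.7 in βTC6. The libraries overlapped (log2 fold change 0.12, SE 0.13, limma adjusted p = 0.425), beside an mRNA difference of 2.61. Inside Adcy9, 2 more peaks were assigned to Gm5766, of which 1 (chr16:4320858-4321260) was lower in βTC6 (log2 fold change -1.03, SE 0.25, limma adjusted p = 0.000731) and the other (chr16:4316097-4316488) did not pass (log2 fold change 0.32, SE 0.19, limma adjusted p = 0.129). For Adcy6 no consensus peak lay within the gene, and the nearest, 2159 bases upstream, averaged 10.3 ± 1.63 in αTC1 and 9.41 ± 1.16 in βTC6 (SD, n = 5 each). Its log2 fold change was -0.11 (SE 0.15, limma adjusted p = 0.530). Adcy6 was nonetheless the most abundant member in αTC1.

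Adcy4 and Adcy10 each had 1 peak, in an intron of Adcy4 and overlapping an exon of Adcy10, on chromosomes whose median peak was shifted. The Adcy4 peak was higher in βTC6 by 0.61 in log2 (SE 0.23, limma adjusted p = 0.0181), while the median peak of chromosome 14 was higher by 1.54. The Adcy10 peak had a log2 fold change of -1.5 (SE 0.23, limma adjusted p = 5.20e-06), against a median of -0.61 on chromosome 1. On the chromosomes of the other members these medians lay between -0.09 and 0.12.

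Set beside each other, the promoter peak and the mRNA of a gene were both higher in βTC6 for Adcy1, Adcy2, Adcy3 and Adcy8, in different measure: Adcy8 had a promoter peak difference of 2.15 with under 1 FPKM of mRNA. Adcy9 differed in mRNA without a difference at its promoter peak that passed the FDR. The remaining genes had opposing promoter peaks or none.

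The mixtures gave libraries that the calls had not used. Of the 13 called peaks near adenylyl cyclase genes, all 13 changed with the βTC6 percentage in the direction of the pure lines, and 11 (84.6%) did so at an adjusted p under 0.05 (Pearson r of log2(normalized read count + 1), exact 2-sided permutation test over 9 mixtures, Benjamini-Hochberg over 11911 called peaks). Of all called peaks 97.7% did. The Adcy8 promoter peak followed the percentage with r = 0.94 (exact adjusted p = 0.00019) and Spearman rho = 0.98 (exact adjusted p = 0.000243). It ran from 7.11 normalized reads at 10% βTC6 to 24.0 at 50% and 31.1 at 90%. The Adcy1 distal peak had r = 0.92 (exact adjusted p = 0.00105) and rho = 0.92 (exact adjusted p = 0.00208), and the Adcy2 peak more open in βTC6 r = 0.89 (exact adjusted p = 0.00206) and rho = 0.92 (exact adjusted p = 0.00208).

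The Adcy1 promoter peak had r = 0.91 (exact adjusted p = 0.00217) and rho = 0.90 (exact adjusted p = 0.00294). It held 1.22 to 2.34 normalized reads in the mixtures with 10% to 50% βTC6, and 6.19 at 90%, below each pure βTC6 library. The peaks more open in αTC1 fell as βTC6 rose: for Adcy5 r = -0.94 (exact adjusted p = 0.000415) and rho = -0.95 (exact adjusted p = 0.000812), and for Adcy2 r = -0.92 (exact adjusted p = 0.00147) and rho = -0.93 (exact adjusted p = 0.00136). The Adcy3 promoter peak was weaker, with r = 0.70 (exact adjusted p = 0.0280) and a rho of 0.63 that did not pass (exact adjusted p = 0.0777). Without the 10% and 90% mixtures r stayed between 0.81 and 0.97 in size for these 7 peaks, and each still passed.

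The 2 called peaks that did not pass were chosen for mention after their values were seen: an intergenic Adcy2 peak (chr13:69145842-69146335) with r = 0.47 (exact adjusted p = 0.204) and rho = 0.47 (exact adjusted p = 0.213), and an intergenic Adcy8 peak (chr15:64769818-64770141) with r = 0.52 (exact adjusted p = 0.152) and rho = 0.57 (exact adjusted p = 0.122). Each mixture is a single library, so its spread was not measured.

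**Figure D4:**
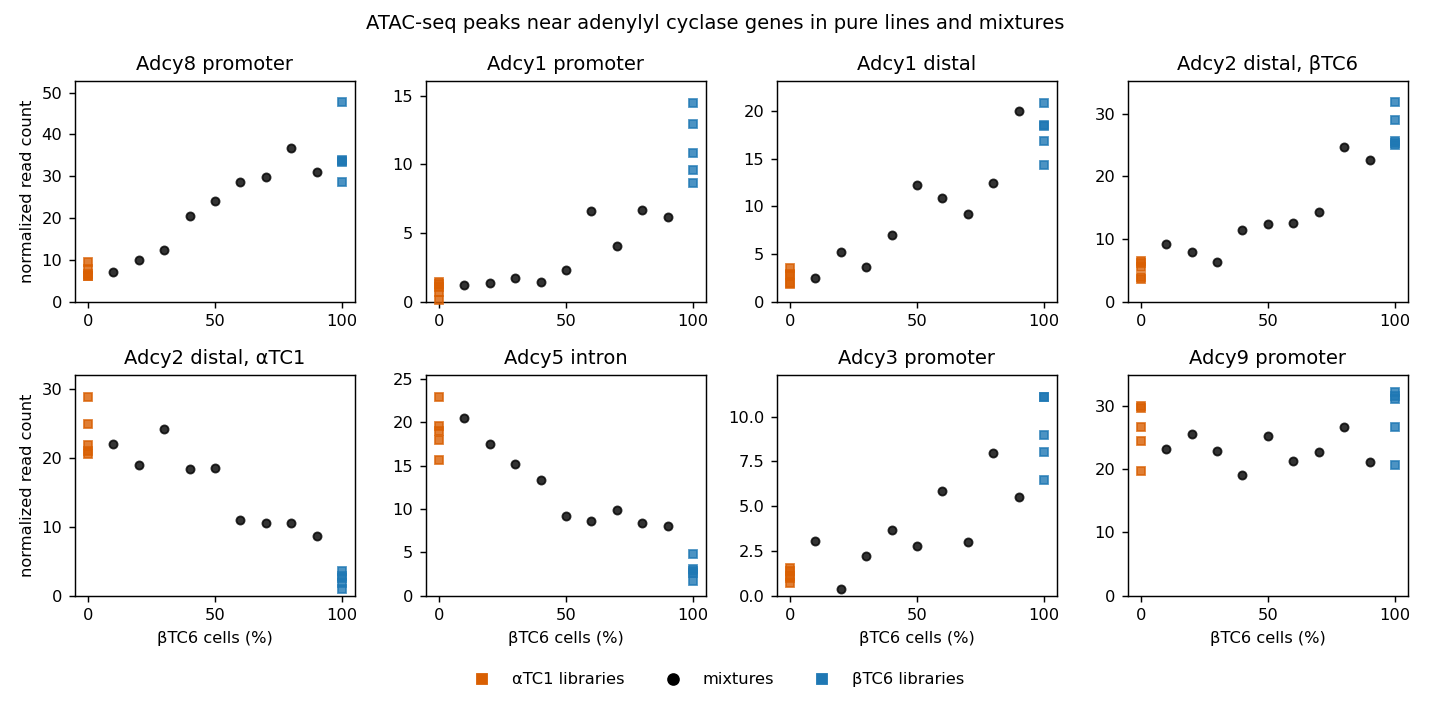
Normalized read counts (vertical axes, from 0) of 8 peaks against the percentage of βTC6 cells (horizontal axes); squares are the 5 libraries of αTC1 at 0% (orange) and of βTC6 at 100% (blue), and black dots the 9 mixtures. The Adcy8 promoter goes from 7.11 at 10% to 31.1 at 90%, with its highest mixture at 80%, the Adcy2 and Adcy5 peaks of αTC1 fall, and the Adcy9 promoter stays between 19.1 and 26.7.

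In sequence the 55 peaks were counted for 5 short motifs in the 300 bases around their middle, beside the share of all 65053 peaks. The E-box CAGCTG was in 13 of 55 (23.6%, all peaks 23.8%), the homeodomain core TAATTA in 8 (14.5%, all peaks 9.87%) and the forkhead core TGTTTAC in 3 (5.45%, all peaks 8.80%). The GC box GGGCGG was in 7 (12.7%, all peaks 19.8%) and the cAMP response element TGACGTCA in 1 (1.82%, all peaks 1.07%). Median GC content was 45.7% and 48.0% over all peaks. A match is a description and not a bound site.

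The genes that act before and after the cyclases were counted by lists of 69 genes, of which 51 were tested. Of these 20 were called higher in βTC6 (39.2%) and 4 higher in αTC1 (7.84%), beside 10.2% and 4.08% of all genes tested, whose median log2 fold change was 0.0094. However, 17 of the 51 passed the FPKM filter only through βTC6 and 3 only through αTC1, so these had to differ, and their counts support no statement about the lists. Among the 31 that passed in both lines, 3 were called higher in βTC6 (Sstr3, Prkar1b and Prkar2b) and 1 higher in αTC1 (Pde1c), beside 2.71% and 1.54% of the 10423 genes that passed in both.

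Among receptors that stimulate cAMP through Gs, 5 of the 7 tested were called higher in βTC6 and 1 higher in αTC1. All 5 passed the filter only through βTC6 and the 1 only through αTC1, and the single receptor that passed in both lines, the adenosine receptor Adora2a, was lower in βTC6 without being called (log2 fold change -1.26, edgeR adjusted p = 0.000274). Glp1r, the GLP-1 receptor, was at 0 in all αTC1 libraries and at 66.3, 48.5 and 74.3 FPKM in βTC6, at least 2281-fold higher against the floor of 3 counts used for Adcy8. Adora2b, an adenosine receptor, was also at 0 in αTC1, with 2.76, 2.78 and 2.32 FPKM in βTC6, at least 119-fold higher against that floor. Gipr, the GIP receptor, had 0.05, 0.12 and 0.78 FPKM in αTC1 and 11.1, 6.77 and 14.4 in βTC6 (log2 fold change 5.09, SE 0.61, edgeR adjusted p = 5.74e-05). Of its 42 αTC1 counts 35 came from replicate 3, without which the log2 fold change was 7.0.

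Of receptors that inhibit the cyclases through Gi, 5 were tested and called higher in βTC6, but 4 of them passed the filter only through βTC6. The one that passed in both lines was Sstr3, a somatostatin receptor, whose mean FPKM was 22.5 in βTC6 against 2.90 (log2 fold change 3.01, edgeR adjusted p = 6.62e-08). Sstr5, another somatostatin receptor, was at 0 in αTC1 and at 5.09, 4.38 and 2.24 FPKM in βTC6, at least 249-fold higher against the same floor. Adra2a, the α2A-adrenergic receptor, had 0.02, 0.06 and 0 FPKM in αTC1 and 27.3, 32.0 and 37.7 in βTC6 (edgeR adjusted p = 1.79e-08). With 8 counts over the αTC1 libraries, the ratio of summed counts per library size was 1148, with an exact 95% counting interval of 582 to 2659, and the fitted log2 fold change ran from 9.51 without αTC1 replicate 3 to 11.40 without αTC1 replicate 2. Adora1, an inhibitory adenosine receptor, had 0.01 to 0.03 against 2.26 to 2.61 FPKM (log2 fold change 7.0, SE 0.29, edgeR adjusted p = 8.69e-08).

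Of 10 tested G protein and calmodulin genes, Gnai1, an inhibitory α subunit, was the only one called, at 0.74 to 0.95 FPKM in αTC1 and 7.58 to 10.1 in βTC6 (log2 fold change 3.45, SE 0.17, edgeR adjusted p = 2.13e-07). It passed the filter only through βTC6, and the other 9 had passed in both lines. Among cAMP effectors 3 of 13 tested were called higher in βTC6 and none higher in αTC1, and all 3 were regulatory subunits of protein kinase A. Prkar1a passed the filter only through βTC6, and the 12 others, in both lines, had a median of -0.23 (all genes that passed in both, -0.04). Prkar1a had 0, 0 and 0.02 FPKM in αTC1 and 545, 584 and 435 in βTC6 (edgeR adjusted p = 1.82e-09). With a single count over the αTC1 libraries, the ratio of summed counts per library size was 102491, with an exact 95% counting interval of 18395 to 4048229, although this subunit is made by most cells. Prkar1b and Prkar2b were higher by 2.67 (SE 0.12) and 2.13 (SE 0.15) in log2. The remaining regulatory subunit listed, Prkar2a, went the other way without being called, at a mean of 34.7 FPKM in αTC1 and 17.1 in βTC6. Its log2 fold change was -0.96 (SE 0.08, edgeR adjusted p = 7.25e-06).

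The phosphodiesterases, which break cAMP down, were called in both directions, 3 of 12 tested each way. At any fold 3 of the 12 passed the FDR as higher in βTC6 and 9 as higher in αTC1, beside 38.7% and 36.0% of all tested genes. Of the 12, 3 passed the filter only through βTC6 and 2 only through αTC1. The 7 that passed in both lines were all higher in αTC1 at the FDR, with a median of -1.13, beside 37.2% of genes that passed in both (34.2% were higher in βTC6). Pde1a had 2.67, 2.08 and 2.43 FPKM in αTC1 and 0.03 in each βTC6 library (log2 fold change -6.54, SE 0.30, edgeR adjusted p = 1.53e-07). Pde3a had 33.8, 34.9 and 42.5 against 0.54, 0.33 and 0.50 (log2 fold change -6.39, SE 0.18, edgeR adjusted p = 9.19e-09). Pde4c went the other way, with 0.02 to 0.06 FPKM in αTC1 and 1.31 to 2.64 in βTC6 (log2 fold change 5.53, SE 0.42, edgeR adjusted p = 2.97e-06). Pde1a and Pde3a passed the filter only through αTC1 and Pde4c only through βTC6, so they had to differ. Pde1c, the only one called that passed in both lines, averaged 92.9 FPKM in αTC1 and 19.8 in βTC6. Its log2 fold change was -2.19 (SE 0.15, edgeR adjusted p = 1.29e-06).

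Of the guanylyl cyclases, which make cyclic GMP and served as a related enzyme family, 3 of 4 tested were called higher in βTC6, all 3 of which passed the filter only through βTC6. Gucy1b3, a subunit of the soluble enzyme, passed in both lines and was not called (log2 fold change 0.73, edgeR adjusted p = 0.0321). Gucy2c, the guanylin receptor, had 0.99, 0.87 and 1.52 FPKM in αTC1 and 51.2, 49.4 and 30.8 in βTC6 (log2 fold change 5.33, SE 0.27, edgeR adjusted p = 2.61e-07). The natriuretic peptide receptors Npr2 and Npr1 were higher by 5.81 (SE 0.39) and 2.48 (SE 0.33) in log2.

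**Figure D5:**
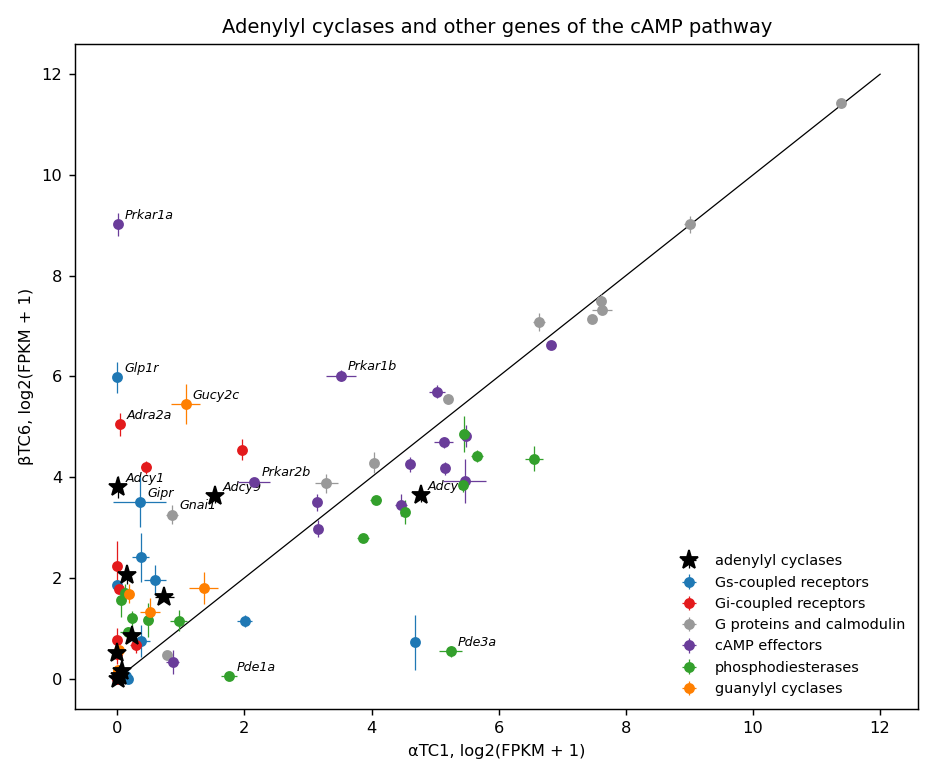
Mean log2(FPKM + 1) in αTC1 (horizontal axis) and βTC6 (vertical axis) for the adenylyl cyclases (stars) and the other cAMP and cGMP pathway genes (dots, by list), with bars for the SD over 3 libraries and a line where both are equal. Adcy1, Glp1r, Adra2a and Prkar1a lie at the left edge, Pde3a and Pde1a near the bottom, and most G proteins near the line.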

How the data were processed

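Expression was measured by RNA-seq (3 libraries a line) and open chromatin by ATAC-seq (5 libraries a line, 9 mixtures), mapped to groups by the labels. The authors trimmed RNA-seq reads with Trim Galore, aligned them to mm9 with Bowtie 2 and estimated expression with RSEM 1.2.12. The deposited expected counts are RSEM's estimates, and the deposited FPKM values, given to 2 decimals, come from the same run. For ATAC-seq the authors used Trimmomatic, BWA and Picard to trim, align and deduplicate, MACS2 for peaks of each library and DiffBind to merge them; the deposited signal is each library's reads in a consensus peak after TMM scaling. They also deposited other columns per peak, the nearest gene and the distance to its start site from HOMER. Dividing a library by its lowest value gave whole reads for 100% of values (tolerance 0.01).

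Genes were tested with edgeR 4.0.16 (glmQLFTest, TMM) on expected counts rounded to whole numbers. The 92 ERCC spike-in rows (0.436% to 0.971% of each library's counts) were kept out of library sizes and tests, and TMM stood in for the study's spike-in correction, which was not run here. Peaks were tested with limma 3.58.1 (trend) on log2(value + 1) in R 4.3.3. DESeq2 1.42.0 was an alternative for the counts. Both used Benjamini-Hochberg adjustment over all features. Counting intervals are exact and cover counting error only; the floor of 3 counts is 1.15e-05% to 1.37e-05% of an RNA-seq library. In simulated data with 200 features changed by 3 in log2, edgeR called 200 of them among 12195 genes and limma 200 among 65053 peaks, with 0 false calls each. That change lies well past the fold of a call. The changed peaks were drawn from higher peaks only and shifted on the log2(value + 1) scale itself. Recovery of low peaks, as many near adenylyl cyclase genes are, was therefore not measured. Every pair of replicates differed by more than sampling noise (lowest variance ratio 2.03, RNA-seq αTC1 replicates 1 and 2), so each counted as 1 sample. All members were named, with up to 3 called genes of the greatest fold change (either way) from every other list. Every promoter peak (within 2 kb of a start site) and the called peaks with the 3 largest t in each direction were also named. Described outside that rule were the Adcy8 and Adcy3 intronic peaks, peaks inside members but assigned to other genes, and the Adcy6, Adcy4 and Adcy10 peaks. Among genes, Adora2a, Sstr3, Gucy1b3, Prkar2a and Pde1c were too. Members and lists were chosen with earlier results of these data known. Gene positions come from GENCODE vM1 on mm9 (NCBIM37), and sequences from that genome. Alternatives were other normalizations, filters, pseudocounts and tests, a replicate block, each replicate left out, and ATAC-seq replicates 1 to 3 or 4 and 5 alone.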

Additional observations from a re-analysis of the deposited data

Results flagged for a closer look

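By Dixon's test at the 95% level, 10 of 106 groups of 5 libraries, taken over the 53 informative adenylyl cyclase peaks, held a value far from the other 4. Chance flags about 1 in 20. In βTC6, replicate 5 was high in 3 Adcy8 peaks, with 47.7 normalized reads in the peak over the first exon (others 28.5 to 33.8), 30.2 in the intronic peak at chr15:64609405-64610035 (others 8.28 to 12.9) and 9.77 in that at chr15:64613195-64613615 (others 1.71 to 3.69). Without that library their log2 fold changes were 2.04, 2.50 and 1.27, in place of 2.15, 2.79 and 1.58, and no call changed.

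In βTC6, replicate 2 was high in 2 Adcy1 peaks, with 7.79 (others 2.57 to 3.98) and 10.5 (others 5.45 to 6.53), and low in an Adcy9 peak, with 19.3 (others 28.4 to 31.7). In αTC1, replicate 5 was high in an Adcy1 peak with 2.60 (others 1.12 to 1.26), an Adcy2 peak with 11.8 (others 3.14 to 4.62) and the Adcy10 peak with 6.36 (others 3.68 to 4.07), and replicate 2 in an Adcy2 peak with 2.53 (others 0.601 to 1.09). Leaving out the library concerned changed none of these calls.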

How the results depend on the processing

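For RNA-seq, 4 adenylyl cyclase genes higher in βTC6 and 0 higher in αTC1 were counted with DESeq2, ERCC library sizes, upper-quartile scaling and each library left out (range 4 to 4 and 0 to 0). Without the FPKM filter 6 were higher, and limma on log2(FPKM + 1) gave 2, since Adcy3 (0.88) and Adcy2 (1.89) missed the fold on that scale. Over all genes, 1245 higher in βTC6 became 2510 of 19570 without the filter and 702 of 12195 with limma. The 498 higher in αTC1 became 1020 and 277. For the other pathway genes the counts stayed at 20 and 4 with any library left out, and without the filter 27 were higher in βTC6 and 7 in αTC1. With limma on log2(FPKM + 1) some of the named ones missed the fold, among them Prkar2b (1.75), Adora2b (1.85) and Adora1 (1.75). For ATAC-seq, 11 peaks higher in βTC6 became 0 with a pseudocount of 5, 20 with edgeR on recovered reads and 7 with quantile normalization. All peaks moved too: 8409 higher in βTC6 and 3502 higher in αTC1 became 1668 and 819, 13794 and 5739, and 5555 and 5032, respectively. The 2 peaks higher in αTC1 became 0 with a pseudocount of 5 and 3 with edgeR. Larger pseudocounts shrink the fold of low peaks by construction. Leaving out 1 library gave 10 to 12 and 2 to 2. Replicates 1 to 3 alone gave 10 and 2, and replicates 4 and 5 alone 13 and 2. In the mixtures 11 peaks passed without logs or with a pseudocount of 5, and 10 without the 10% and 90% mixtures.

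Samples were not treated as paired by replicate number. Same-numbered deviations from the group means correlated at only -0.05 to 0.03 in RNA-seq and -0.0019 to 0.07 in ATAC-seq. The replicate block left 4 genes and 11 and 2 peaks called. However, of the 5 ATAC-seq numbers 3 had their best partner in the other line under their own number, so a weak pairing there cannot be told from none.

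On expected counts the βTC6 minus αTC1 difference in share was -68.4 percentage points for the calcium-inhibited, 50.0 for the calcium-stimulated, 5.47 for the βγ-stimulated isoforms and 13 for Adcy9, in place of -62.7, 34.2, 8.30 and 20.2. With 1 library left out, the ranges were -63.1 to -62.4, 32.4 to 35.1, 8.07 to 8.46 and 19.1 to 21.9, and -0.08 to 0.02 for Adcy10. Among single named genes and peaks, 243 of the RNA-seq and 234 of the ATAC-seq values under alternatives kept direction and side of the threshold, 9 and 9 kept direction but lost the call, and 2 ATAC-seq values gained it.
Depth limits the low genes: Adcy4, Adcy5 and Adcy10 had at most 25 counts a library.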
